A study of Paxillus involutus ATCC 200175 with 12 samples.

Results

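The comparison is between mycelium of Paxillus involutus kept on organic matter with ammonium and glucose (OM+N+G, 3 arrays) and mycelium kept on the same organic matter with neither (OM, 3 arrays). These 6 arrays, chosen by their titles, belong to a series of 12 on 1 NimbleGen slide. The other 6 arrays carry glucose alone (OM+G, 3 arrays) and ammonium alone (OM+N, 3 arrays), and they served to set the joint change beside the changes made by each nutrient. All groups were strain ATCC 200175, grown axenically on glass beads for 9 days, deprived of nitrogen for 24 h and then incubated for 7 days on material extracted from maize compost by hot water. The extract had passed a 0.2 um filter and an ultrafiltration step at 10 kDa that took out small compounds. The letters N and G are read as ammonium and glucose from the design text; the sources used here do not give their amounts. The question of the series is how supply of both nutrients governs the use of litter by the fungus.

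Paxillus involutus forms ectomycorrhiza, a symbiosis in which the fungus sheathes tree roots, receives sugars from the host and delivers nitrogen and other nutrients. Ammonium is a nitrogen source that fungi take up and assimilate readily, and in many fungi studied in culture its presence lowers the expression of genes for other nitrogen sources. Glucose is a sugar that ectomycorrhizal fungi take up from their hosts, and in many fungi it lowers the expression of genes for other carbon sources. No host was present in these cultures. The array features carry running numbers that the files do not pair with gene names, and 0 of 12214 numbers matched the 18033 entries of the RefSeq gene table of this strain. Gene functions are therefore not given, and features are named by number.

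Values are RMA values on the log2 scale, made by the authors. RMA as usually run makes the distributions of arrays alike before it summarises probes, so every change is read against the rest of its array, and total mRNA is not measured. In bulk mycelium, fewer hyphae carrying a transcript and less of it per hypha cannot be told apart. The labels put OM on subarrays 1 to 3 and OM+N+G on subarrays 10 to 12, so the nutrient change and the position on the slide cannot be told apart. OM+N and OM+G lie between them, OM+N on the lower numbers. Every group with glucose thus has higher numbers than every group without it, so glucose and position cannot be told apart either. With or without glucose, the group with ammonium also has higher numbers than the group lacking it. The same limit therefore holds for the changes with ammonium. The design text speaks of 3 separate cultures; read as 3 per group, the spread behind the p-values is that of cultures and subarrays together. In OM, replicate 2 differed most from its group. The median SD of a feature was 0.08 on the log2 scale in OM+N+G and 0.10 in OM, or 0.06 in OM without replicate 2. The last value is over 2 arrays and the others over 3, so they are not directly comparable. Results that rest on this array are given with and without it.

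Both nutrients together changed 8183 of 12214 features relative to OM, or 67.0% (limma, Benjamini-Hochberg adjusted p under 0.05). Of these, 3750 were higher in OM+N+G (30.7% of all features) and 4433 were lower (36.3%). The response was broad and mostly small, with a typical (median) size of 1.36-fold for rises and 1.35-fold for falls. Without OM replicate 2 the count was 8424, with 3797 higher and 4627 lower, and 7933 features were called in the same direction both with and without this array. The values of the 3 OM+N+G arrays all lay above those of the 3 OM arrays for 3934 features (32.2%) and all below for 4568 (37.4%), so the groups were separate for 69.6% of features.

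The largest rise was that of paxillus_10. It stood at 13.94, 13.81 and 13.93 (log2) in OM+N+G replicates 1 to 3, against 10.76, 12.90 and 10.75 in OM replicates 1 to 3. The groups did not overlap, but OM replicate 2 lay more than 2 log2 units above the other OM arrays. The log2 change was 2.42 (SE 0.41, limma adjusted p = 0.000211, n = 3 each), a 5.36-fold rise, and 3.14 without OM replicate 2. With glucose alone paxillus_10 stood at 13.77, 13.86 and 13.73, close to OM+N+G, and with ammonium alone at 10.74, 10.51 and 11.02. The difference of OM+N+G minus OM+G was 0.10 (log2, SE 0.41, limma adjusted p = 0.938), with a 95% interval from -0.79 to 1.00. The single-nutrient changes of paxillus_10 summed to 1.61. The joint change minus that sum was 0.81 (SE 0.58, limma adjusted p = 0.554), with a 95% interval from -0.45 to 2.08.

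The second largest rise was that of paxillus_285, which was also called higher with each nutrient alone. It lay at 13.39, 13.41 and 13.28 in OM+N+G, against 10.98, 11.21 and 11.03 in OM (log2), and the OM arrays were close together. The log2 change was 2.29 (SE 0.15, limma adjusted p = 7.32e-07, n = 3 each), or 4.87-fold. With glucose alone the feature lay at 12.25, 12.50 and 12.45, a rise of 1.32 (SE 0.15, limma adjusted p = 1.52e-05), and with ammonium alone at 11.52, 12.25 and 12.17, a rise of 0.91 (SE 0.15, limma adjusted p = 0.0212). The single-nutrient changes summed to 2.23, and the joint change exceeded that sum by 0.06 (SE 0.21, limma adjusted p = 0.911), with a 95% interval from -0.40 to 0.52.

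The 2 largest falls belonged to paxillus_6442 and paxillus_6443, which are consecutive in the numbering. What the order of the numbers stands for is not stated. paxillus_6442 lay at 11.16, 11.34 and 11.33 (log2) in OM+N+G, against 13.03, 13.24 and 12.78 in OM, with no overlap. The log2 change was -1.74 (SE 0.14, limma adjusted p = 1.25e-06, n = 3 each), a 3.35-fold fall. paxillus_6443 lay at 11.50, 11.52 and 11.21 in OM+N+G, against 13.13, 13.32 and 12.94 in OM, and its log2 change was -1.72 (SE 0.15, limma adjusted p = 2.22e-06).

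These falls were not those of glucose alone. paxillus_6442 lay at 13.31, 13.38 and 13.28 (log2) in OM+G, above every OM array, and at 11.49, 12.04 and 11.54 in OM+N. Its change with glucose alone was 0.30 (SE 0.14, limma adjusted p = 0.0666) and with ammonium alone -1.33 (SE 0.14, limma adjusted p = 0.000763). paxillus_6443 lay at 13.47, 13.49 and 13.48 in OM+G and at 11.53, 12.26 and 11.79 in OM+N. Its changes were 0.35 (SE 0.15, limma adjusted p = 0.0589) with glucose alone and -1.27 (SE 0.15, limma adjusted p = 0.00236) with ammonium alone. Set against glucose alone, OM+N+G was lower by 4.13-fold for paxillus_6442 (limma adjusted p = 6.09e-06) and by 4.20-fold for paxillus_6443 (limma adjusted p = 9.47e-06). Set against ammonium alone, paxillus_6442 changed by -0.41 (SE 0.14, limma adjusted p = 0.0157) and paxillus_6443 by -0.45 (SE 0.15, limma adjusted p = 0.0166).

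**Figure D1:**
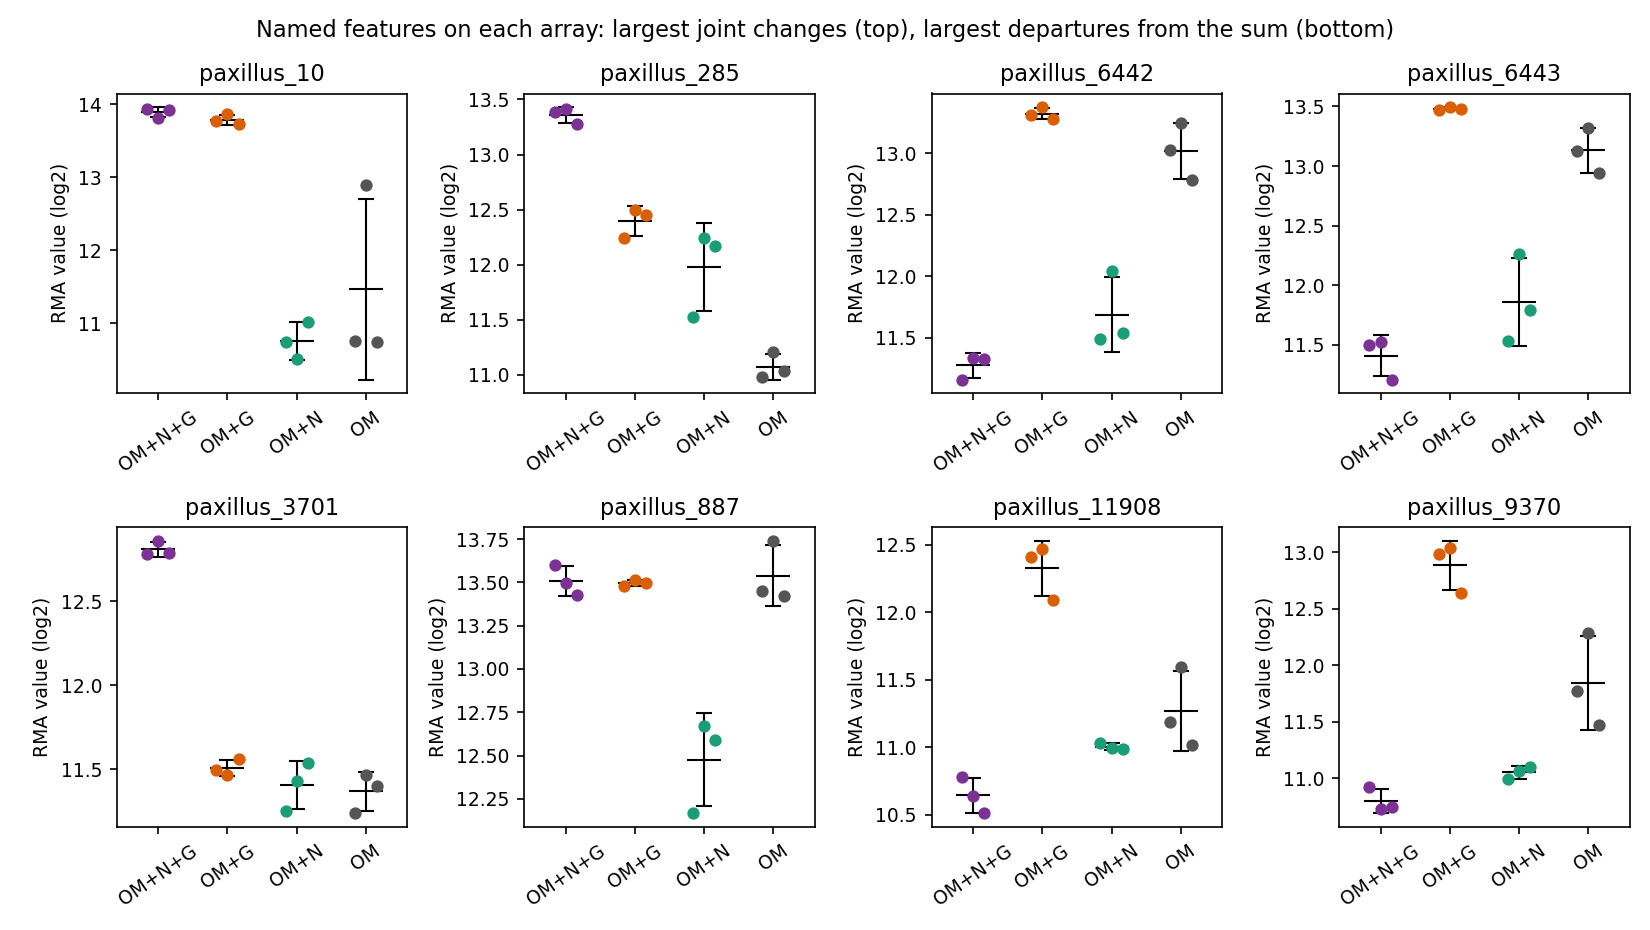
RMA values (log2, vertical axes) of the 8 named features on each of the 12 arrays, by group; points are arrays, and black bars are the mean and SD of 3 arrays. In the upper row paxillus_10 is high in both groups with glucose and paxillus_6442 and paxillus_6443 are low in both groups with ammonium. In the lower row paxillus_3701 is high in OM+N+G, at a mean of 12.81 against 11.37 in OM.

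Most of the 8183 changes were well under a doubling. Rises under 0.25 on the log2 scale numbered 595, those from 0.25 to 0.5 numbered 1602, and those from 0.5 to 1 numbered 1336. The corresponding falls numbered 684, 2017 and 1674. Changes of at least 1 on the log2 scale were called for 275 features (2.25%), of which 217 rose (1.78%) and 58 fell (0.475%). All 7 changes of at least 2 were rises. The number of large changes rested on OM replicate 2: without it, 459 features changed by at least 1, 348 upward and 111 downward. When limma tested for a change larger than 0.5 instead of 0, 861 features passed, 405 higher and 456 lower in OM+N+G. For a change larger than 1, 9 passed, all of them higher. At the other end, the 95% interval of the joint change lay wholly within 0.5 of zero for 6214 features (50.9%).

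**Figure D2:**
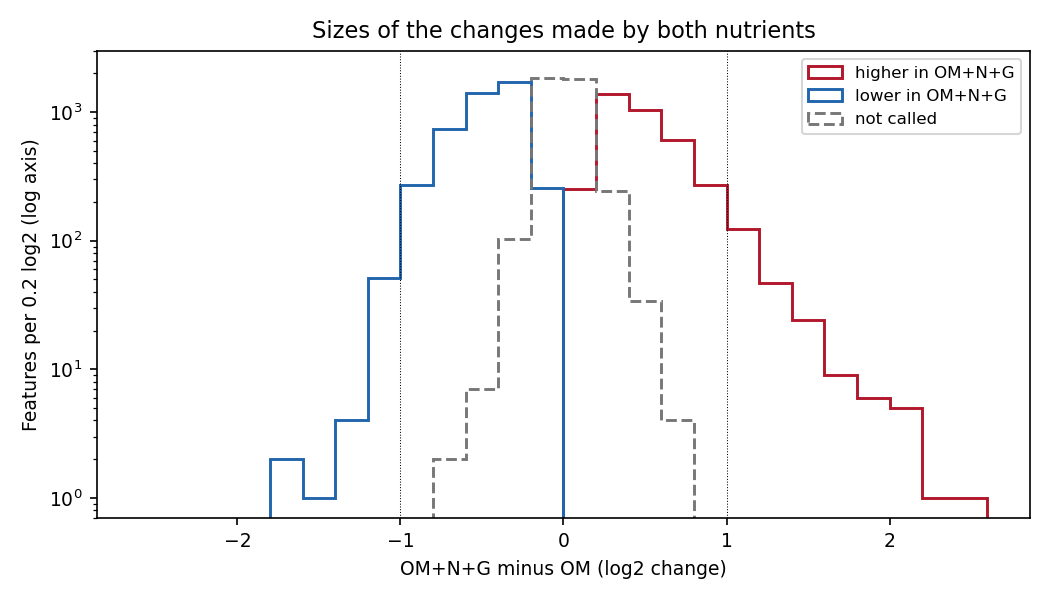
Number of features (vertical log axis) by log2 change of OM+N+G minus OM in steps of 0.2; red and blue lines are features called higher and lower, the dashed grey line those not called, and dotted verticals mark changes of 1 in either direction. Beyond 1 the rises (217) outnumber the falls (58).

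The large changes were set beside the changes made by each nutrient alone. These contrasts share the OM arrays with the joint change, and OM+N+G minus OM+G shares the OM+N+G arrays with it. Their values are given side by side as a description, since choosing features by the joint change favours calls in its own direction. Over the 217 rises of at least 1, the median joint change was 1.15, the median change with glucose alone 0.97 and with ammonium alone -0.04 (log2). Of them, 210 were also called higher with glucose alone, where 29.8% of all features were called higher and 66.2% in either direction, and 3 with ammonium alone, where 0.0901% of all features were. OM+N+G was higher than OM+G for 58 of the 217, where 2.96% of all features were called higher, and lower for 0, where 1.92% were. Rises of at least 1 numbered 348 without OM replicate 2, of which 339 were also called higher with glucose alone, 4 were with ammonium alone, and 74 were higher and 1 lower in OM+N+G than in OM+G. Over all 3750 rises the medians were 0.45 for the joint change, 0.41 for glucose alone and -0.06 for ammonium alone.

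The 58 falls of at least 1 were of more than 1 kind. Of them, 49 were also called lower with glucose alone, where 36.4% of all features were, and 1 of these 49 differed between OM+N+G and OM+G. A further 8 were called lower with ammonium alone, where 0.246% of all features were. In all 8 the mean of OM+G lay above that of OM, and all 8 differed between OM+N+G and OM+G. paxillus_6442 and paxillus_6443 belong to these 8. Without OM replicate 2 the falls of at least 1 numbered 111, of which 105 were also called lower with glucose alone and 5 with ammonium alone; in those 5 the features were called higher with glucose alone. Over all 4433 falls the median joint change was -0.43, against -0.41 with glucose alone and 0.08 with ammonium alone.

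The position of OM+G and OM+N on the way from OM to OM+N+G was read from arrays that do not enter that axis. The OM mean, however, is both the start of the axis and the origin of every position. The spread of the OM arrays thus enters both, and the positions are not an independent reading. Each array was projected over all 12214 features on the line between the mean of OM, at 0, and the mean of OM+N+G, at 1. The OM+G arrays lay at 0.83, 0.86 and 0.89, a mean of 0.86 ± 0.03 (SD, n = 3). The OM+N arrays lay at -0.27, -0.04 and -0.09, a mean of -0.13 ± 0.12. The OM arrays themselves lay at -0.07, 0.21 and -0.14, with replicate 2 highest, so the OM+N and OM arrays overlapped and the OM+G arrays lay apart from both. With the axis drawn without OM replicate 2, OM+G lay at 0.89 ± 0.03 and OM+N at -0.03 ± 0.12. No p-value is attached to these positions.

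**Figure D3:**
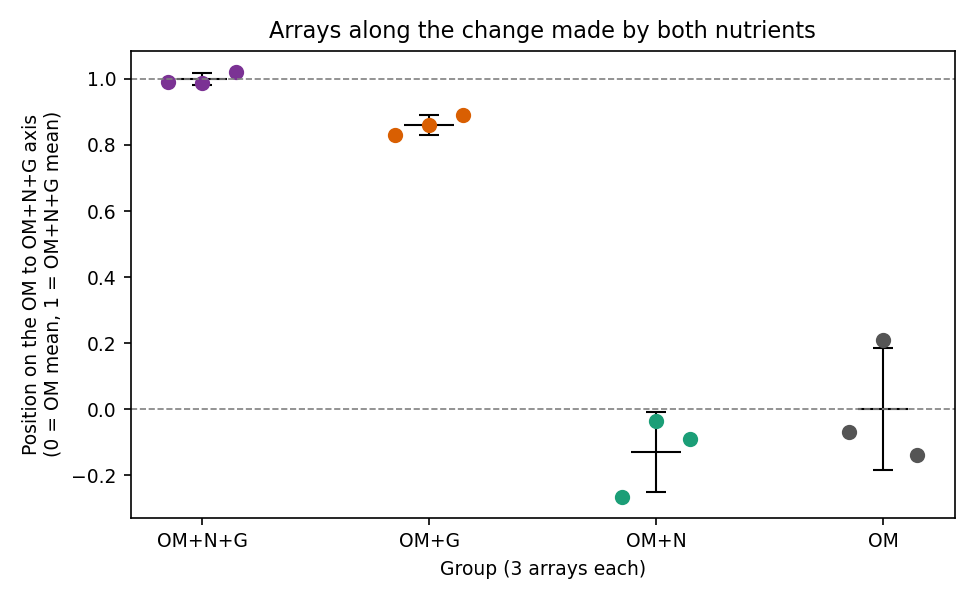
Position of each array (points) on the axis from the OM mean (0) to the OM+N+G mean (1), by group, with mean and SD of 3 arrays in black. The OM+G arrays sit between 0.83 and 0.89 and the OM+N arrays between -0.27 and -0.04.

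One pairwise contrast of the series shares no array with the joint change, namely OM+G minus OM+N. If ammonium made no change, both contrasts would measure the change made by glucose, together with any effect of position on the slide. In both, the group with glucose lies on the higher-numbered subarrays, so sharing no array does not remove such an effect. Across 12214 features the 2 sets of log2 changes had a Pearson's r of 0.86 and a Spearman's rho of 0.89. Features are not independent replicates, and both contrasts use the same slide. Without OM replicate 2 and OM+N replicate 1, r was 0.89 and rho 0.90. OM+G minus OM+N called 8910 features (72.9%), 3847 of them higher (31.5%) and 5063 lower (41.5%), and 3059 were higher and 4053 lower in both contrasts. These are 86.9% of the joint calls and 79.8% of the calls of OM+G minus OM+N. Another 125 features had opposite directions in the 2 contrasts. paxillus_6442 was one of them, 1.64 higher in OM+G than in OM+N (log2, SE 0.14, limma adjusted p = 1.62e-06) while lower in OM+N+G than in OM. paxillus_6443 was another, 1.62 higher in OM+G than in OM+N (SE 0.15, limma adjusted p = 2.44e-06).

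Whether the joint change equals the sum of the single-nutrient changes was tested as the joint change minus that sum, on the log2 scale, which is the interaction of glucose and ammonium. The departure passed the test for 90 features (0.737%), 46 with a joint change above the sum (0.377%) and 44 with one below it (0.36%). Its unadjusted p was under 0.05 for 1535 features. The departure's median size over all features was 0.11, and the median half-width of its 95% interval was 0.23. For 9714 features (79.5%) the 95% interval of the departure lay wholly within 0.5 of zero. No feature passed limma's test for a departure larger than 0.5. On simulated data, 38% of departures of 0.5 and 94% of departures of 1 were recovered, with 50 features simulated at each size, so a departure of 0.5 in a single feature was often not detectable with 3 arrays per group.

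The count of departures moved with single arrays. It dropped to 37 when OM replicate 1 was left out, to 28 or 25 when OM+G replicate 1 or 2 was, to 38 when OM+N replicate 3 was, and to 53 or 48 when OM+N+G replicate 1 or 3 was. In the absence of OM replicate 2 it was 103, and 77 of the 90 were called again in the same direction. When the sum was taken on the linear scale of intensities, 194 features passed, of which 85 were called in the same direction on the log2 scale. That fit also used limma's intensity trend and robust moderation, which on the log2 scale gave 144. The step from 90 to 194 is therefore not one of scale alone.

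Among the 46 features above the sum, 39 were higher in OM+N+G than in OM, 1 was lower and 6 were not called for the joint change, where 30.7% of all features were higher and 36.3% lower. Among the 44 below the sum, 33 were lower in OM+N+G than in OM, 2 were higher and 9 were not called. The median joint change of the 46 was 0.72, where glucose alone gave 0.10 and ammonium alone 0.04. The median joint change of the 44 was -0.46, where glucose alone gave 0.36 and ammonium alone -0.05. These counts and medians describe features chosen by the same arrays.

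paxillus_3701 had the most positive departure. It lay at 12.78, 12.86 and 12.79 (log2) in OM+N+G, against 11.24, 11.47 and 11.40 in OM. With glucose alone it lay at 11.50, 11.47 and 11.56 and with ammonium alone at 11.25, 11.43 and 11.54, so the 9 arrays outside OM+N+G all lay between 11.24 and 11.56. The joint change was 1.44 (SE 0.08, limma adjusted p = 2.55e-07, n = 3 each), a 2.72-fold rise. The single-nutrient changes summed to 0.18, and the departure was 1.26 (SE 0.11, limma adjusted p = 0.000638).

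paxillus_887 had the next most positive departure but did not differ detectably between OM+N+G and OM. It lay at 13.60, 13.50 and 13.43 (log2) in OM+N+G, against 13.45, 13.74 and 13.42 in OM, with overlap. The joint change was -0.03 (SE 0.12, limma adjusted p = 0.837), with a 95% interval from -0.28 to 0.23. The OM+G arrays, at 13.48, 13.51 and 13.50, lay within the range of OM. The OM+N arrays, at 12.17, 12.67 and 12.59, lay below all others, and the change with ammonium alone was -1.06 (SE 0.12, limma adjusted p = 0.00142). The departure of 1.07 (SE 0.17, limma adjusted p = 0.0123) therefore rested on the OM+N arrays.

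The most negative departures were those of paxillus_11908 and paxillus_9370, both with their highest mean in OM+G and their lowest in OM+N+G. paxillus_11908 lay at 10.78, 10.64 and 10.51 (log2) in OM+N+G, against 11.19, 11.59 and 11.02 in OM, so its joint change was -0.62 (log2, SE 0.13, limma adjusted p = 0.0011). In OM+G it lay at 12.41, 12.47 and 12.09 and in OM+N at 11.03, 10.99 and 10.98. The single-nutrient changes summed to 0.79, which is a rise, and the departure was -1.42 (SE 0.19, limma adjusted p = 0.00648).

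paxillus_9370 lay at 10.92, 10.72 and 10.75 (log2) in OM+N+G, against 11.77, 12.29 and 11.47 in OM, with OM replicate 2 highest. Its log2 change was -1.05 (SE 0.16, limma adjusted p = 0.000107). In OM+G it lay at 12.98, 13.03 and 12.63 and in OM+N at 10.99, 11.06 and 11.10. OM+N+G minus OM+N was -0.25 (log2, SE 0.16, limma adjusted p = 0.177), so a difference between these groups was not shown. The departure was -1.30 (SE 0.23, limma adjusted p = 0.0238). That call was lost in 6 of 12 refits that left out 1 array each, with an adjusted p of up to 0.0802, and after quantile normalization, where the departure was -1.08 (limma adjusted p = 0.095). The departure was -1.52 without OM replicate 2 (limma adjusted p = 0.00216).

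**Figure D4:**
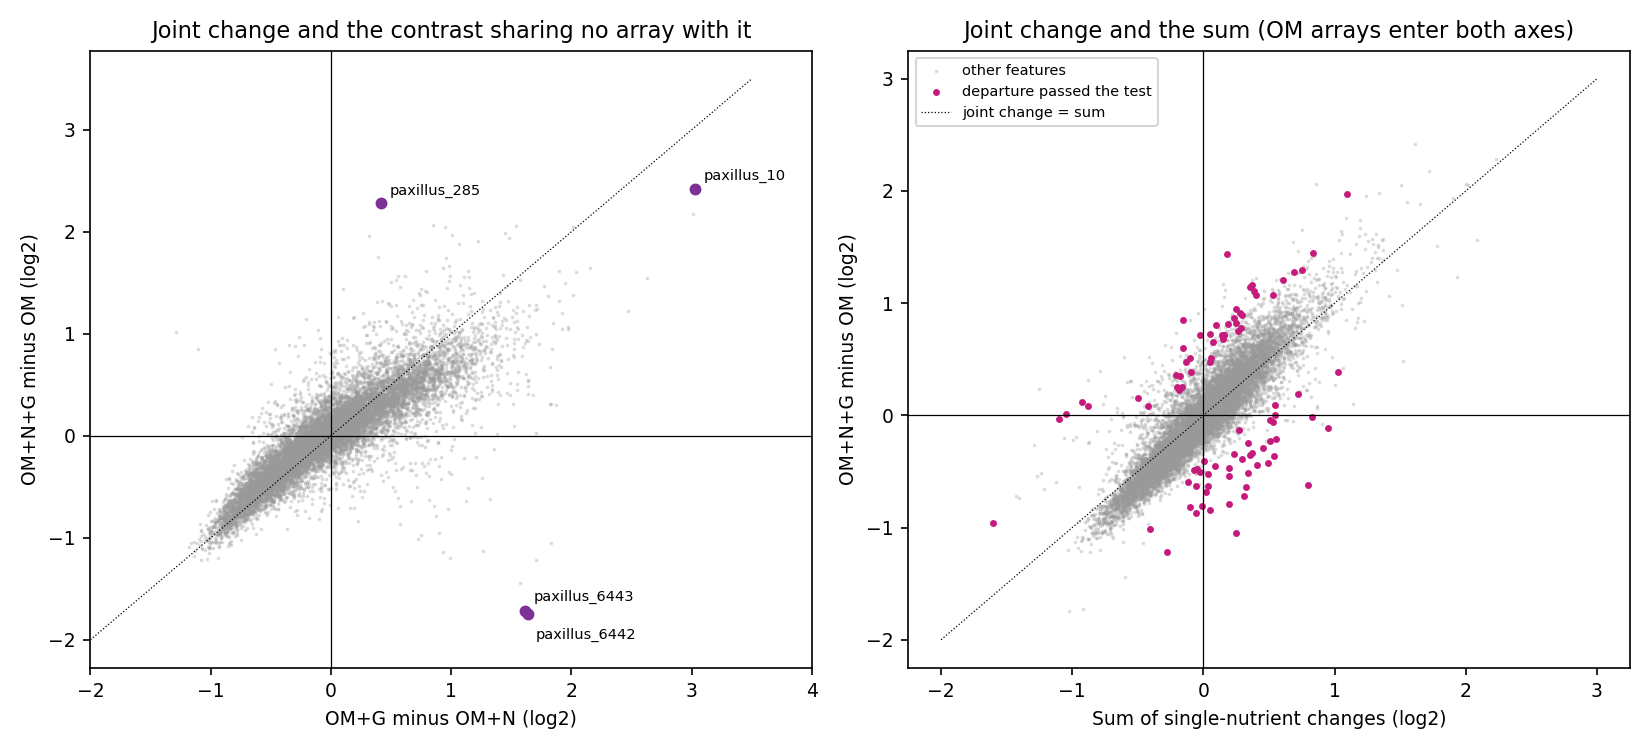
Log2 change of OM+N+G minus OM (vertical axes) of 12214 features against OM+G minus OM+N, which shares no array with it (left), and against the sum of the single-nutrient changes, which shares the OM arrays (right); dotted lines mark equal values. On the left most features follow the line while paxillus_6442 and paxillus_6443 lie to its lower right; on the right the 90 features with a departure that passed the test are coloured.

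The features that distinguish OM+N+G from every other group were counted next. OM+N+G differed from OM, OM+G and OM+N alike, in the same direction, for 270 of 12214 features that were higher and 112 that were lower. The test of the departure passed for 39 of the 270 and 29 of the 112, where 0.737% of all features passed. It uses the same arrays as the choice, and for most of these features no difference from the sum was shown. Without OM replicate 2 the 270 and 112 became 305 and 128. By the arrays alone, all 3 OM+N+G arrays lay above the other 9 for 873 features (7.15%) and below them for 773 (6.33%). The same counts were 689 above and 521 below for OM+G, 752 above and 609 below for OM+N, and 27 above and 147 below for OM. Without replicate 2 the remaining 2 OM arrays lay above the 9 others for 218 features and below them for 395, and with 2 arrays separation is easier to reach than with 3.

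Few features were called in opposite directions for the joint change and for glucose alone. The joint change holds any ammonium change as well, so these are not features whose glucose change was shown to turn. In 62 features the joint change and the change with glucose alone were called in opposite directions, 39 of them lower with both nutrients and higher with glucose alone, and 23 the reverse. Features chosen in this way must nearly always differ between OM+N+G and OM+G, and all 62 were called there; nothing is read from this against the 4.89% of all features. The test of the departure passed for 30 of the 62, against 0.737% of all features, and it uses the same arrays as the choice. Without OM replicate 2 the 62 became 61. For 991 features the joint change was called while neither single-nutrient change was, and the departure passed for 21 of these, where 0.737% of all features passed, so for most of the 991 no difference from the sum was shown. Conversely, 910 features were called with glucose alone and not with both nutrients, of which 10 passed the test of the departure, a share near that of all features.

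Of the 41 features called with ammonium alone (0.336%), 27 were called in the same direction with both nutrients, 18 lower and 9 higher. One was called in the opposite direction and 13 were not called. The joint change was called in either direction for 67.0% of all features, so the number of joint calls among the 41 was near that background. By direction, 18 of the 30 lower with ammonium alone were lower with both nutrients, where 36.3% of all features were. Of the 11 higher with ammonium alone, 9 were higher with both, where 30.7% of all features were. Both contrasts share the OM arrays, which favours calls in the same direction. Without OM replicate 2, ammonium alone called 28 features, 20 of them in the same direction as the joint change and 3 in the opposite one. Other single arrays moved the 41 further: leaving out OM replicate 1 gave 21, OM+N replicate 3 gave 27, OM+N replicate 2 gave 96 and OM replicate 3 gave 132. Against ammonium alone, OM+N+G differed for 8963 features (73.4%), 3990 of them higher (32.7%) and 4973 lower (40.7%).

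In the deposited values bright features were more often higher and dim features more often lower in OM+N+G, a pattern that stayed after scaling to the 75th percentile and was not seen after cyclic loess or quantile normalization. Features were ordered by their mean over the 6 OM+G and OM+N arrays, which do not enter the joint contrast, and the 715 with such a mean under 6, close to the random-sequence control, were set aside. Among the brightest 25% of the rest 41.9% were called higher in OM+N+G and 28.6% lower. Among the dimmest 25% 21.4% were called higher and 48.1% lower. Cyclic loess between arrays flattens any trend with brightness by design, and after it the shares were 31.7% higher and 35.5% lower for the brightest 25%, and 35.4% higher and 33.2% lower in the dimmest. Quantile normalization gives every array the same distribution, so by design it evens out differences in spread between arrays. With it the shares were 27.6% and 36.9% for the brightest 25%, and 33.5% and 34.1% in the dimmest. Scaling to the 75th percentile moves all values of an array by 1 amount, so it cannot remove a contrast between bright and dim features. After it the pattern stayed, with 35.8% higher and 32.3% lower for the brightest 25%, and 17.6% and 53.6% for the dimmest. It also stayed without OM replicate 2, with 44.5% and 29.7% for the brightest 25%, and 20.1% and 50.1% for the dimmest. The balance of rises and falls among bright features thus turned with cyclic loess and with quantile normalization, but not with scaling to the 75th percentile. Falls of at least 1 among the brightest 25% numbered 25 in the deposited values and 63 after cyclic loess.

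**Figure D5:**
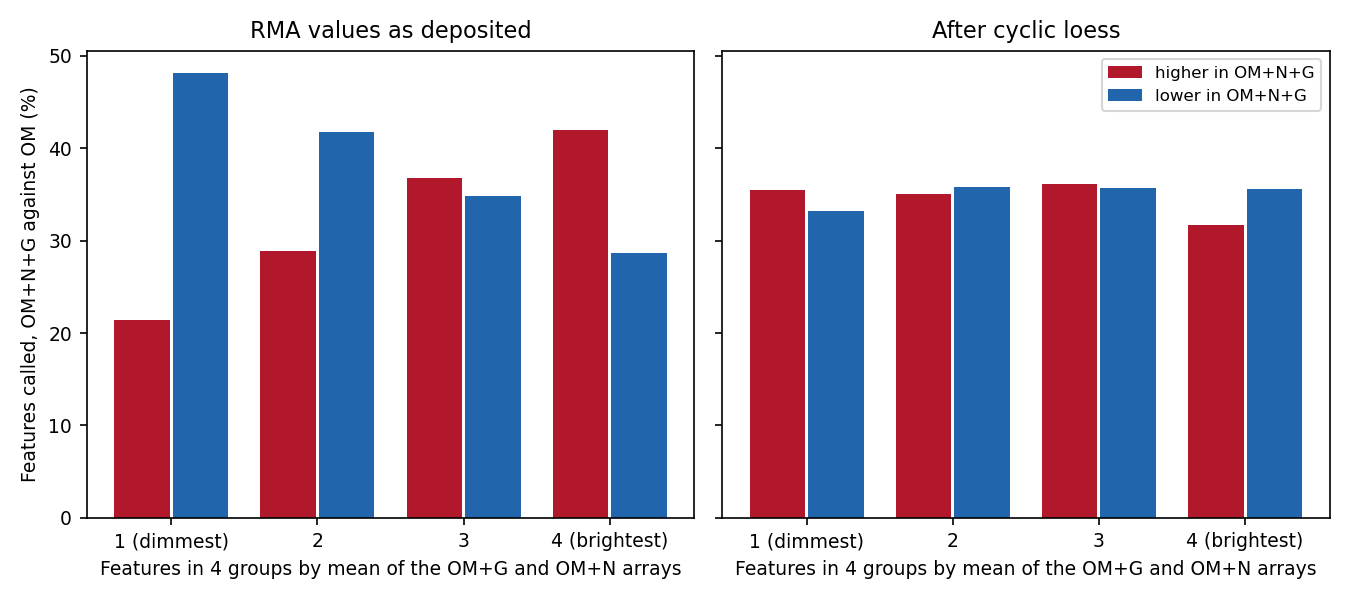
Share of features (percent, bars from 0) called higher (red) and lower (blue) in OM+N+G relative to OM, in 4 groups of features of equal size ordered by the mean of the OM+G and OM+N arrays, from deposited RMA values (left) and after cyclic loess (right). On the left the share higher climbs from 21.4% to 41.9% from the dimmest to the brightest; on the right the shares lie between 31.7% and 36.1%.

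The spread of values within an array was wider in both groups with glucose than in both groups without it. The interquartile range over features was 1.27, 1.26 and 1.26 on the log2 scale in OM+N+G, against 1.06, 1.12 and 1.07 in OM. The means were 1.26 ± 0.003 in OM+N+G and 1.09 ± 0.03 in OM (SD, n = 3 each), with 1.26 ± 0.01 in OM+G and 1.07 ± 0.02 in OM+N. The difference of OM+N+G minus OM, 0.18, had p = 0.1 in a two-sided exact permutation test, the smallest it can give for 3 against 3. Its part in the trend with brightness was not tested. Among the 715 features set aside as dim, 42 were called higher in OM+N+G and 26 lower, which is 9.51% of them and below the 67.0% of all features.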

How the data were processed

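Transcripts of Paxillus involutus were measured on 12 single-colour (Cy3) subarrays of 1 NimbleGen slide. The authors deposited log2 values from RMA, which the submitters' processing notes name; its software and settings are not stated in the sources used here. The log2 scale was read from the range of the values. Each array file holds 12214 features, 12203 of them summarised from 10 probes and 11 from fewer, and 1 random-sequence control from 10000 probes, which was left out of all tests. The series table held the same values. No detection call was used. The control lay between 3.66 and 3.80, and array medians between 11.74 and 11.78. The number of arrays limits the precision.

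The model, fitted with limma (version 3.58.1, run under R 4.3.3) by lmFit, contrasts.fit and eBayes, had 1 mean for each group over all 12 arrays. It left 8 residual degrees of freedom, and the prior added 4.72. Errors of changes are limma's standard errors (SE). Adjusted p-values are Benjamini-Hochberg over all 12214 features, with a threshold of 0.05 and no filter. The departure from the sum is OM+N+G - OM+G - OM+N + OM. The named features are the 2 largest rises and 2 largest falls among called features whose OM+N+G and OM arrays do not overlap, and the 2 most positive and 2 most negative called departures. On simulated data with 200 changed features, the joint contrast recovered 16% of changes of 0.25, 82% of changes of 0.5 and 96% of changes of 1, with 7 false calls. In the data 8183 features were called, and with fewer changed features the Benjamini-Hochberg cutoff is stricter. These shares therefore do not give the recovery of the joint contrast in the data. The alternatives are described with their effect in the closing section. The members, rules and alternatives were chosen with earlier results of these data known.

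Same-numbered OM+N+G and OM arrays deviated from their group means with correlations of 0.05, -0.02 and 0.17, so the replicate numbers were not treated as pairs.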

Additional observations from a re-analysis of the deposited data

Results flagged for a closer look

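The ammonium change differed between cultures with and without glucose, by the test of the interaction, for 90 features, which is the same test as that of the departure from the sum. Among the named features the difference was 1.26 for paxillus_3701, 1.07 for paxillus_887, -1.42 for paxillus_11908 and -1.30 for paxillus_9370 (log2). On the linear scale, fitted with trend and robust moderation, the call of paxillus_9370 was lost (limma adjusted p = 0.0538), and that of the other 3 was kept. With the same moderation on the log2 scale, paxillus_9370 had a limma adjusted p of 0.047. Groups of 3 arrays are too small for the check for single outlying arrays.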

How the results depend on the processing

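The count for both nutrients minus OM (8183) stayed within 1.5 times under the series table, cyclic loess, 75th-percentile scaling, quantile normalization, the filter on the dimmest 25%, trend with robust moderation, array weights and a fit to the 6 arrays alone. It ranged from 7384 to 8424 when 1 array was left out, and was 8102 with the replicate block, under which the departure count was 64; the block moved no count by over 1.5 times except that of departures above the sum, which became 29. With limma's treat at 0.5 the counts were 861 for both nutrients minus OM, 0 for the departure, 28 for OM+N+G minus OM+G, 1867 for OM+N+G minus OM+N, 321 for OM+G minus OM, 1 for OM+N minus OM and 1605 for OM+G minus OM+N. At 1 they were 9, 0, 5, 5, 0, 0 and 0 in the same order, and the count of changes of at least 1 was 9. The departure count was 59 after quantile normalization, 144 with trend and robust moderation, 329 with array weights, and 25 to 103 when 1 array was left out. On the linear scale, fitted with trend and robust moderation too, the departure count was 194. OM+N+G minus OM+G called 1238 with array weights and 326 to 730 when 1 array was left out, where leaving out OM+G replicate 1 gave 326, OM+G replicate 2 gave 352 and OM+N+G replicate 3 gave 358. OM+N minus OM called 81 without the dimmest 25% of features, 72 with trend and robust moderation, 146 with array weights, 3 in a fit to its own 6 arrays, and 21 to 132 when 1 array was left out. Changes of at least 1 numbered 199 to 459 when 1 array was left out, and 459 without OM replicate 2 and OM+N replicate 1 together. Among the dimmest 25% the rises numbered 616, or 1019 after cyclic loess and 962 after quantile normalization; among the brightest 25% they numbered 1206, or 793 after quantile normalization. The cause of these shifts was not tested. The settings for brightness by quantile normalization and 75th-percentile scaling, and the classes, positions and brightness shares without OM replicate 2, were chosen after seeing the data. Among the named features, no direction turned under any setting run; treat at 1 left paxillus_285 called and not paxillus_10, paxillus_6442 or paxillus_6443. The interquartile-range difference kept its direction with features of a mean of at least 6.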
